A study of Mus musculus with 38 samples.

Results

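The Pvalb interneurons described here are 466 of the 14296 cortical nuclei measured by single-nuclei RNA-seq in 4 mice of the Emx1-Cre cross. A nucleus was taken as a member when its unique molecular identifiers (UMIs, each standing for 1 captured RNA molecule) met a rule on 12 genes. The sum of Gad1 and Gad2 had to be at least 3 and above that of Slc17a7 and Neurod6, and the sum of Pvalb, Eya4 and Btbd11 had to be at least 3, above that of Adarb2 and Vip and above that of Sst, Grin3a and Elfn1. The rule thus reads measured values of the same nuclei, and those 12 genes are given below as levels only, with no test.

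Both groups were 3 months old and, per the labels, carried 1 Emx1-Cre allele (+/-). Control animals 64 and 65 were Trim28-fl (+/-), with 1 floxed Trim28 allele, and Trim28-KO animals 60 and 73 were Trim28-fl (+/+), so that Cre could delete 1 allele in the first pair and both in the second. A figure legend of the study instead calls the controls of its bulk cortex comparison Cre-negative. The Methods of the study give the same genotypes as the labels, for the nuclei too, with 1 Trim28 allele excised in the controls. The labels and Methods were followed here, and the wording of that legend remains in conflict with them. The sire of the cross also carried a gtRosa reporter allele. Pvalb nuclei numbered 108 and 118 in control animals 64 and 65, and 121 and 119 in KO animals 60 and 73. Bulk cortex RNA was deposited for the same 4 animals and for control animal 77 and KO animal 76. The question put to these nuclei was whether a neuron type that arises outside the Emx1-Cre lineage differs between the genotypes, and whether its response differs from that of excitatory neurons, which carry the deletion.

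Parvalbumin interneurons are the fast-spiking basket and chandelier cells of the cortex, which inhibit the soma or the axon initial segment of their targets with GABA. They are born in the medial ganglionic eminence together with Sst interneurons, migrate tangentially into the cortex, and thus come from progenitors other than the Emx1-expressing dorsal progenitors of excitatory neurons. Their short spikes rest on Kv3 potassium channels, their calcium transients are buffered by parvalbumin, and many are wrapped in a perineuronal net. Trim28 is a corepressor that KRAB zinc finger proteins recruit to transposable elements, where it directs silencing by histone H3K9 trimethylation.

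Across the series, the 4 nuclei libraries held 3130 to 3871 barcodes and 29127314 to 33524892 UMIs. The 6 pairs of libraries shared 36 barcodes, none of them a Pvalb nucleus. The same sums, applied to the other nuclei, gave 209 Sst, 547 Adarb2 Vip, 28 other GABAergic and 5058 excitatory nuclei, and 1539 oligodendrocyte nuclei by their own markers. The remaining 6449 nuclei met none of these rules and were left unclassed. Their median UMIs were 4830.5 to 6322 per animal, against 11227.5 to 12934 in excitatory nuclei. Animal 64 held only 34 Sst nuclei, which limits comparisons with that class. Median UMIs in a Pvalb nucleus were 11016 and 11285.5 in the controls and 11174 and 11078 in the KO animals, and an oligodendrocyte nucleus held between 1987 and 2467.5. Depth of the Pvalb nuclei therefore was alike in all 4 animals, with 1259304 to 1455670 UMIs summed over the nuclei of 1 animal.

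The label was set beside the 4 marker genes. The rule itself used Pvalb, Eya4 and Btbd11, so their values are descriptions and only Tmem132c is a check. Levels are in CPM, the UMIs of a gene relative to all UMIs of a class in an animal, scaled to a total of 1000000. Pvalb, which codes for the calcium buffer parvalbumin, was found with at least 1 UMI in 63.0% and 66.9% of control members and in 82.6% and 75.6% of KO members, against 0.845% to 3.62% of the shallower oligodendrocyte nuclei. Tmem132c, a transmembrane protein gene that the rule did not use, stood at 210 and 202 CPM in the controls and 178 and 143 in the KO animals, and at a mean of 51.2 in Sst, 9.22 in Adarb2 Vip and 1.66 in excitatory nuclei. It was seen in 70.0% to 77.9% of the members that had a Pvalb UMI and in 65.5% to 75.0% of those that had none. Members without a Pvalb UMI, which entered through Eya4 and Btbd11, thus held Tmem132c about as often as the rest. Tmem132c, the marker outside the rule, goes with the label, and the name was kept.

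Members just inside the rule were few on its Pvalb side. Between 1 and 3 per animal had a sum of Pvalb, Eya4 and Btbd11 of exactly 3, whereas 20 and 9 in the controls and 13 and 15 in the KO animals had exactly 3 Gad1 and Gad2 UMIs. Just outside, 8 and 9 control and 16 and 18 KO nuclei met the Pvalb side with 2 Gad UMIs, and 43, 73, 63 and 59 nuclei (animals 64, 65, 60 and 73) had enough of both sums but tied with or fell under another interneuron sum. Of the members, 88, 95, 98 and 91 in the same order had no UMI of Slc17a7 or Neurod6.

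Levels of the rule genes varied between animals (plot of class levels), in CPM, which are not corrected for gene length, so that 1 gene is compared across classes and not with another gene. Pvalb stood at 103 and 129 in the controls and at 190 and 171 in the KO animals, so the genotypes did not overlap. Eya4, a transcriptional coactivator, stood at 352 and 365 in the controls and 307 and 264 in the KO animals, and Btbd11, a synaptic protein of interneurons, at 673 and 774 against 647 and 569. Both lay lower in the KO animals while Pvalb lay higher, and since all 3 chose the members these are descriptions with no test. Gad1 and Gad2, the GABA-synthesising enzymes, averaged 380 ± 41.4 and 194 ± 19.3 (SD, n = 4 animals).

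**Figure D1:**
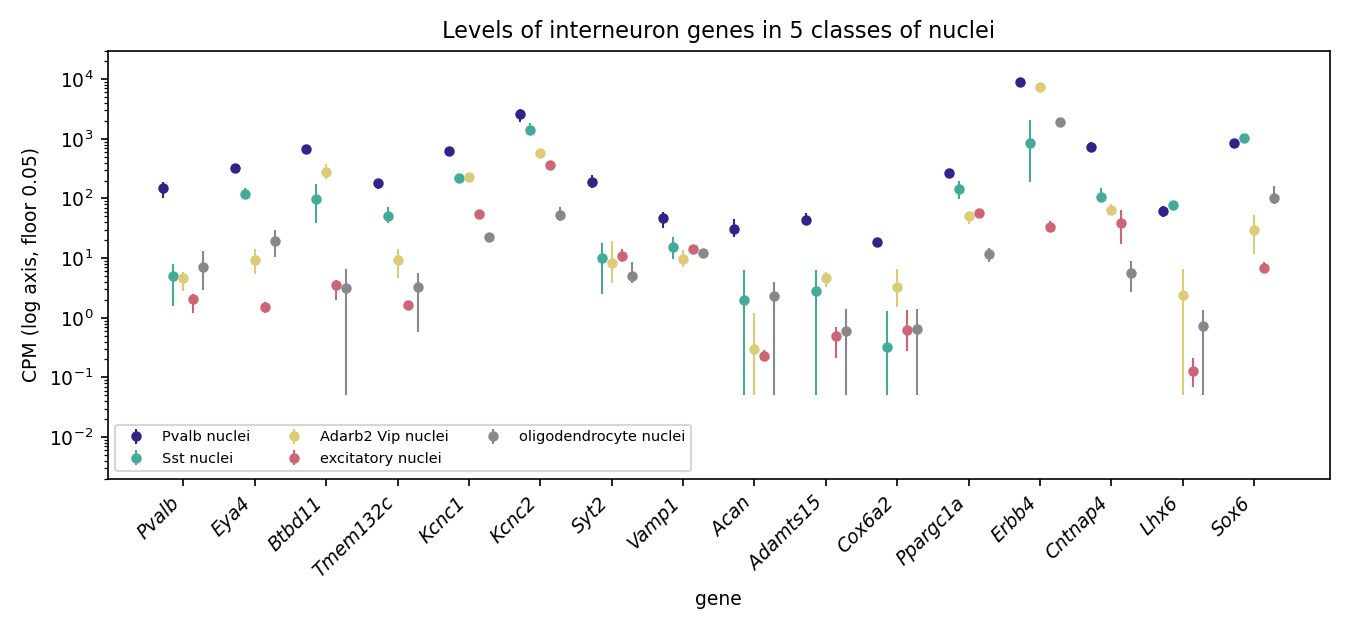
Levels of marker and functional genes in 5 classes of nuclei (CPM, log axis, with values of 0 drawn at 0.05). Each point is the mean of the 4 animals and each bar runs from the lowest to the highest animal, and Kcnc1, Syt2, Acan and Cntnap4 sit higher in Pvalb nuclei than in any other class shown.

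The genes of the fast-spiking machinery, none of which the rule used, set Pvalb nuclei apart from the other neuron classes. Because the classes were drawn from the same nuclei, these differences are given as levels with no test. Kcnc1, a Kv3 channel subunit that repolarises the membrane between fast spikes, stood at 621 ± 66.5 CPM in Pvalb nuclei (SD, n = 4), with no overlap with its range of 194 to 237 in Sst, 217 to 251 in Adarb2 Vip and 53.7 to 57.3 in excitatory nuclei. Kcnc2, its partner, averaged 2637 against 1425 in Sst nuclei, and its lowest Pvalb animal, at 1949, lay above the highest Sst animal, at 1857. Both Kv3 genes were thus highest in Pvalb nuclei. Scn1a, the sodium channel of interneuron axons, averaged 608 against 347, 418 and 304 in Sst, Adarb2 Vip and excitatory nuclei.

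Genes of fast transmitter release followed the same order. Syt2, the fast calcium sensor of basket cell terminals, averaged 190 ± 43.7 CPM in Pvalb nuclei and no more than 10.7 in the other neuron classes. Vamp1, a vesicle fusion protein, averaged 47.1 against 9.82 to 15.3, and Nefh, the heavy neurofilament, 27.0 against 2.50 to 5.18. Cox6a2, a subunit of cytochrome oxidase, was low in all classes but ranged from 15.8 to 21.2 in Pvalb nuclei and averaged 0.319 in Sst, 3.34 in Adarb2 Vip and 0.617 in excitatory nuclei. Ppargc1a, the coactivator of mitochondrial biogenesis, averaged 264 against 147 in Sst nuclei and at most 56.2 in the other 2.

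Perineuronal net genes split. Acan, the core proteoglycan of the net, averaged 31.4 CPM in Pvalb nuclei and 1.99, 0.298 and 0.230 in Sst, Adarb2 Vip and excitatory nuclei, and Adamts15, an aggrecan-cleaving protease, averaged 43.8 against at most 4.64. Bcan averaged 136 against at most 23.7 in those classes. Hapln1, a link protein of the net, averaged 16.6 in Pvalb nuclei but 79.5 in Adarb2 Vip nuclei, so that not every net gene was highest in Pvalb nuclei. Tnr, at 528 ± 58.4, lay close to its excitatory level of 469, with ranges that overlapped.

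Lineage genes placed the members beside Sst nuclei. Lhx6, the regulator of interneurons of the medial ganglionic eminence, averaged 60.8 CPM in Pvalb, 78.9 in Sst and 2.44 in Adarb2 Vip nuclei, and Sox6, its downstream partner, 844, 1029 and 30.0. Nkx2-1, which cortical interneurons switch off before they arrive, had 0 UMIs in the Pvalb nuclei of all 4 animals, a count that allows up to 3 in each. Erbb4, the neuregulin receptor, stood at 8872 ± 1024 in Pvalb and 7504 in Adarb2 Vip nuclei and averaged 861 in Sst nuclei, and Cntnap4, a neurexin family protein, at 718 ± 118 in Pvalb and at most 107 in the other neuron classes.

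Genes that mark subtypes of these cells divided the members. A UMI of Tac1, the substance P precursor, was found in 113 of the 466 members, of Reln, the secreted glycoprotein reelin, in 105, of Sema3e, a semaphorin, in 152, of Il1rapl2, a synaptic adhesion receptor, in 291, and of Kank4 in 81. Tac1 was detected in 31.5% and 16.9% of control and 24.8% and 24.4% of KO members, against 0.997% to 1.86% of oligodendrocyte nuclei, where Reln was found in 1.35% to 4.05%, Il1rapl2 in 3.99% to 10.8% and Kank4 in 0% to 0.270%. The 2 controls lay on either side of both KO animals for Tac1. Sema3e was detected in 22.2% and 37.3% of control and 33.1% and 37.0% of KO members, with 4.90% to 5.98% in oligodendrocyte nuclei. With each nucleus thinned to 5000 UMIs, Tac1 was found in 18.7% and 7.69% of control members and in 16.8% and 16.2% of KO members.

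The subtype genes did not fall evenly on the same nuclei. Reln was found in 12.4% of the members with Tac1, against 22.5% of all members, whereas Sema3e was found in 49.5% of those with Reln, against 32.6% of all. Il1rapl2 was found in 44.7% of the members with Sema3e, against 62.4% of all, and reached 121, 167, 121 and 69 UMIs in a single nucleus of animals 64, 65, 60 and 73. Akr1c18, a steroid-metabolising enzyme, was found in 27.2% of the members with Kank4, against 10.1% of all. Members with Kank4 were deeper, at 13518 to 15523 median UMIs against 10103.5 to 10763 for those without, and so were members with Sema3e, at 12113 to 13759.5 against 9928 to 10763. The part of depth in these overlaps was not tested. Of the members with Reln, 6 of 21, 15 of 32, 11 of 23 and 20 of 29 held Sema3e in animals 64, 65, 60 and 73, so that KO 73 had the most. Calb1 and Pthlh were found in 36 and 23 members. Of the 21 subtype genes, 9 passed the filter on low counts, and none of the 9 passed the test between genotypes, which is described below.

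Pvalb nuclei made up 3.09% and 3.77% of all nuclei in control animals 64 and 65 (exact 95% intervals of 2.54% to 3.72% and 3.13% to 4.50%, which cover counting error only) and 3.19% and 3.07% in KO animals 60 and 73 (2.65% to 3.79% and 2.55% to 3.67%). The KO mean was 0.300 percentage points lower, less than the SD of 0.481 between the controls (two-sided exact permutation p = 0.667). Without control 65 the difference was 0.0404 points in the other direction. With nuclei thinned to 5000 UMIs and shallower ones left out, the shares were 2.55% and 2.71% in the controls and 2.19% and 2.23% in the KO animals. The genotypes did not overlap in that setting, and the difference was -0.416 points (two-sided exact permutation p = 0.333). As a share of the 271, 280, 338 and 361 GABAergic nuclei, members made up 39.9% and 42.1% in the controls and 35.8% and 33.0% in the KO animals, a difference of -6.62 points with no overlap between genotypes. The gap depended on the minimum of the rule, since with sums of at least 5 the shares were 35.6% and 43.3% against 37.2% and 33.7%, which overlap, and the difference was -4.00 points (two-sided exact permutation p = 0.667). With nuclei thinned to 5000 UMIs the shares were 32.3% and 35.8% against 29.1% and 27.7%. Within 3 median absolute deviations of the genes detected, they were 39.9% and 42.1% against 35.9% and 33.0%. Neither setting gave an overlap. With 2 animals against 2 the exact permutation test cannot go below p = 0.333. That value was found with the rule as given and in both of those settings. Which of the nuclei counted as GABAergic depends on the same sums.

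**Figure D2:**
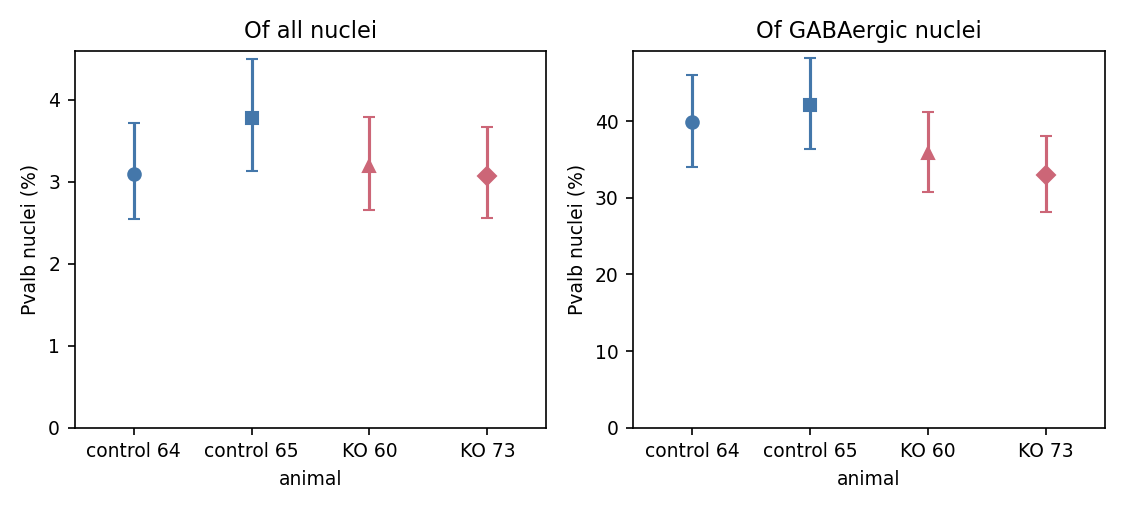
Share of Pvalb nuclei (percent) among all nuclei and among GABAergic nuclei, 1 point per animal with its exact 95% binomial interval. The 4 animals lie between 3.07% and 3.77% of all nuclei, and the 2 KO animals lie below both controls among GABAergic nuclei under the rule as given, though not with sums of at least 5.

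Trim28 itself (chromosome 7, 12999114 to 13031035, forward strand, GRCm38) was sparse in the members. Its UMIs numbered 24 and 24 in the controls and 32 and 11 in the KO animals, or 19.1 and 16.5 against 22.9 and 7.77 CPM. The KO animals lay on either side of the controls, and the log2 fold change of -0.22 (SE 0.42) did not pass the test (edgeR adjusted p = 0.857). KO 73 set its sign, since without that animal the value was 0.34. In the excitatory nuclei of the same animals Trim28 stood at 9.37 and 7.39 against 6.07 and 6.56 CPM, a log2 fold change of -0.45 (SE 0.19, edgeR adjusted p = 0.181). The difference between the classes was 0.18 on the log2 scale (edgeR adjusted p = 0.966). The sources used here do not give which exons are floxed, and a pre-mRNA count of 3′ reads need not lie in the deleted part. In bulk cortex, where reads cover whole transcripts, Trim28 fell by 1.39 on the log2 scale (SE 0.15, edgeR adjusted p = 0.000378), from 18.99 to 21.6 CPM in 3 controls to 6.10 to 8.65 in 3 KO animals.

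Between KO and control, no gene passed in the Pvalb nuclei. UMIs were summed per animal, and of 10201 genes tested outside the rule 0 (0%) were called at an adjusted p under 0.05 by edgeR's quasi-likelihood test, with a smallest adjusted p of 0.115. At an unadjusted p under 0.05 there were 1283 genes (12.6% of those tested), 683 higher and 600 lower in the KO animals. DESeq2 called 0 and put 355 under that unadjusted threshold. The 2 KO animals lay on one side of both controls for 4493 genes (44%). The count of 0 depended on single animals, as 964 genes were called without control 64, 182 without control 65, 19 without KO 60 and 25 without KO 73, fits in which the lone animal of a genotype is assumed to vary like the other pair. In 6539 genes of nuclei with no excitatory or glial marker UMI, 13 were called. That setting kept only part of the members. Those with no glial marker UMI numbered 31, 47, 50 and 53 in animals 64, 65, 60 and 73, and it kept no more than these. In the excitatory nuclei of the same animals 1209 of 15452 genes (7.82%) were called, in Sst nuclei 51 of 7804 (0.654%) and in Adarb2 Vip nuclei 0 of 9929 (0%; 751 at an unadjusted p under 0.05).

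The 6 genes with the smallest p among those higher in KO animals had an edgeR adjusted p of 0.115 or 0.134. Hspa8, a constitutive chaperone, had 59 and 69 UMIs in the controls and 140 and 159 in the KO animals (log2 fold change 1.16, SE 0.18). Cycs, cytochrome c, had 32 and 39 against 88 and 86 (1.23, SE 0.21). For both genes, which were picked by their small p, the KO animals held 2.25 and 2.37 times the control mean in CPM, with no overlap. Nap1l5, an imprinted nucleosome assembly gene, had 172 and 143 against 325 and 328 UMIs (0.97, SE 0.17). Cisd2, an iron-sulfur protein of the mitochondrial and reticular membranes, had 70 and 86 against 152 and 165, Ndufaf4, an assembly factor of complex I, 121 and 108 against 235 and 222, and Pgam1, a glycolytic mutase, 32 and 59 against 127 and 97.

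These 6 genes lay higher in the excitatory nuclei as well, where all 6 passed. Their log2 fold changes there were 0.81 for Hspa8, 0.95 for Cycs, 0.80 for Nap1l5, 0.60 for Cisd2, 0.66 for Ndufaf4 and 1.11 for Pgam1. The 6 genes were higher in the other classes too, with log2 fold changes of 0.63 to 1.66 in Sst nuclei. The ranges were 0.38 to 0.88 in Adarb2 Vip and 0.16 to 0.99 in oligodendrocyte nuclei. Only Nap1l5 in Sst (edgeR adjusted p = 0.016) and Hspa8 in oligodendrocyte nuclei (edgeR adjusted p = 0.0306) passed in those classes. All these comparisons use the same animals, so the values are set side by side and no more. In bulk cortex none of the 6 passed, and the log2 fold changes were 0.04 for Hspa8, -0.11 for Cycs, -0.0044 for Nap1l5, -0.0036 for Cisd2, -0.016 for Ndufaf4 and 0.07 for Pgam1.

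On the lower side, the 6 genes with the smallest p had the same adjusted values of 0.115 or 0.134. Synpr (chromosome 14, 13284780 to 13616340, forward strand), a synaptic vesicle protein, had 68 and 82 UMIs in the controls and 11 and 27 in the KO animals (log2 fold change -2.04, SE 0.32, edgeR adjusted p = 0.115). These came from 15 and 12 control and 7 and 10 KO nuclei, and as many as 17 from 1 nucleus. Sst nuclei held Synpr at a mean of 1250 CPM in the controls, and the summed Sst markers Sst, Grin3a and Elfn1, which the rule keeps low, stood at 45.3 and 72.1 CPM in the control members and 34.3 and 31.1 in the KO members. The part of those transcripts in the Synpr values was not tested.

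Dcc, the netrin receptor, had 383 and 404 UMIs in the controls and 233 and 241 in the KO animals (log2 fold change -0.80, SE 0.14), and Slit3, a secreted guidance ligand, 263 and 298 against 177 and 160 (-0.80, SE 0.15). Gpr137c had 189 and 222 against 120 and 96, and March1, a membrane-bound ubiquitin ligase, 332 and 462 against 231 and 228. The genotypes did not overlap in any of these genes, and none passed. As the genes were picked by their small p, and 44% of all genes tested did not overlap either, this adds nothing to the test.

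**Figure D3:**
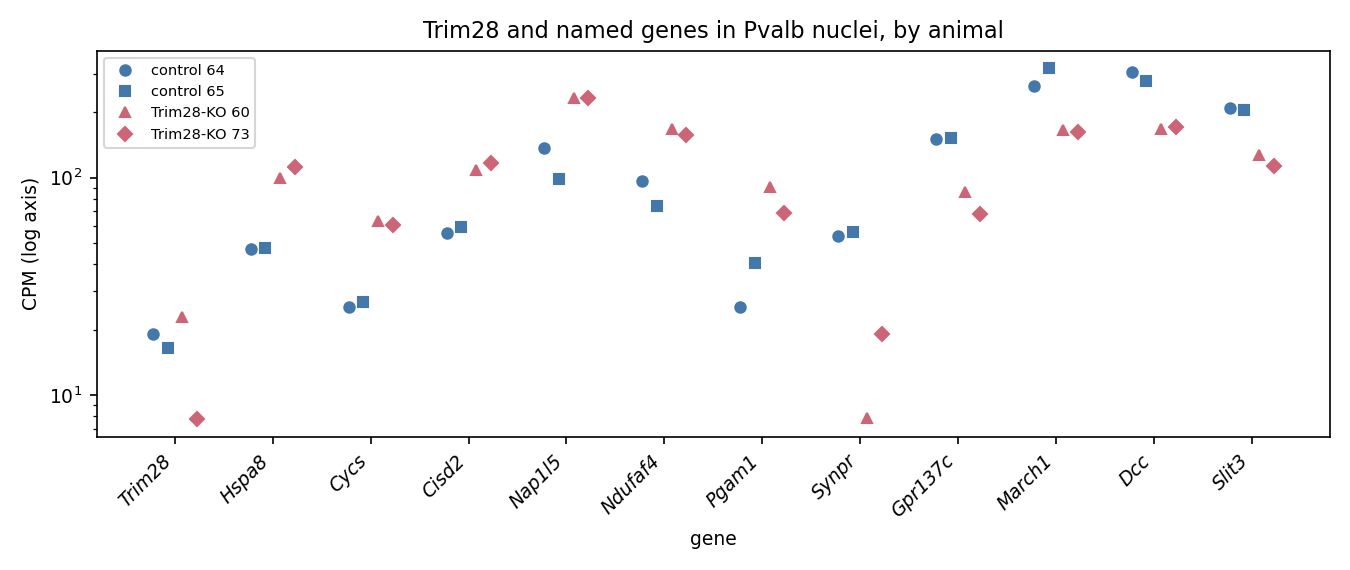
CPM (log axis) in Pvalb nuclei for Trim28 and for genes among the 6 with the smallest p in each direction, 1 point per animal (blue, controls 64 and 65; red, KO animals 60 and 73). Hspa8, Cycs, Cisd2, Nap1l5, Ndufaf4 and Pgam1 sit higher and Synpr, Gpr137c, March1, Dcc and Slit3 lower in both KO animals than in both controls, although no gene passed the test, and the KO animals lie on either side of the controls for Trim28.

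Fold changes in the Pvalb nuclei followed the length of the gene. Genes spanning under 10 kb had a median log2 fold change of 0.36 (1800 genes, of which 364 were higher and 9 lower at an unadjusted p under 0.05), those of 10 to 30 kb 0.08, those of 30 to 100 kb -0.08, those of 100 to 300 kb -0.17 and those over 300 kb -0.21 (515 genes, 6 higher and 143 lower). Genes under 10 kb took 15.9% and 12.5% of the UMIs in the control members and 18.7% and 20.5% in the KO members, while genes over 300 kb took 30.7% and 32.0% against 27.8% and 26.8%. The other classes showed the same order, from 0.30 down to -0.25 in excitatory, from 0.46 to -0.29 in Sst, from 0.26 to -0.15 in Adarb2 Vip and from 0.26 to -0.18 in oligodendrocyte nuclei. Control 65 had the lowest share of UMIs in genes under 10 kb in each of the 5 classes, from 10.2% in Adarb2 Vip to 17.9% in oligodendrocyte nuclei, and in oligodendrocyte nuclei the KO animals, at 23.5% and 23.3%, lay below the 24.7% of control 64. Without control 65, a choice made after seeing the data, the medians in Pvalb nuclei ran from 0.24 for genes under 10 kb to -0.17 for those over 300 kb, and without control 64 from 0.51 to -0.25. The mitochondrial share of UMIs in the members was 0.0708% and 0.165% in the controls and 0.270% and 0.152% in the KO animals, and the median of genes detected per member 3759 and 3772.5 against 3865 and 3860 (two-sided exact permutation p = 0.333, the smallest possible). With an offset for gene length, added after seeing the data, 0 genes were called and 887 had an unadjusted p under 0.05. The offset took the log2 fold change of Nap1l5 from 0.97 to 0.46, that of Cycs from 1.23 to 0.83 and that of Hspa8 from 1.16 to 0.94. Among lower genes that span over 300 kb, the offset took Dcc from -0.80 to -0.54 and Slit3 from -0.80 to -0.56. March1 went from -0.85 to -0.59 and Synpr from -2.04 to -1.83. The part of RNA quality in this gradient was not tested.

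**Figure D4:**
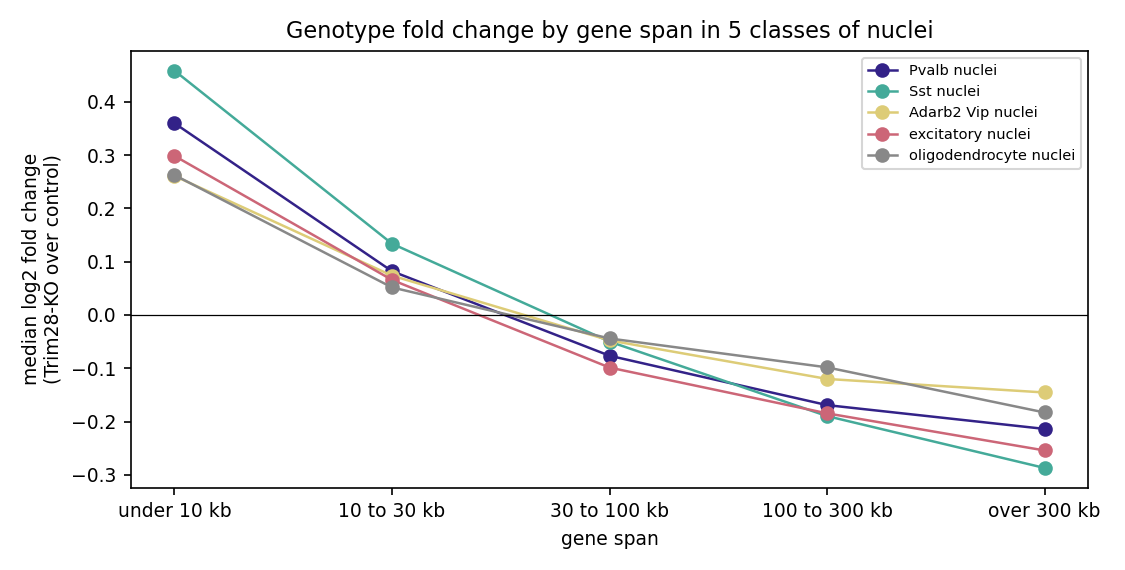
Median log2 fold change (KO over control) of all genes tested, in 5 bins of gene span, for 5 classes of nuclei. In Pvalb nuclei the median runs from 0.36 for genes under 10 kb to -0.21 for genes over 300 kb, and the other 4 classes slope the same way.

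Lists of genes with known roles in these cells gave no call, and their counts are set against the median of -0.01 over all 10201 genes and the 12.6% at an unadjusted p under 0.05. Of 14 fast-spiking channel genes tested, 2 were higher and 1 lower at that threshold, with a list median of -0.09. Kcnc2 had 4010 and 4192 UMIs in the controls and 3548 and 2760 in the KO animals (log2 fold change -0.45, SE 0.13, edgeR adjusted p = 0.221). Both KO animals thus lay below both controls for Kcnc2, although it did not pass.

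Of 8 genes of calcium binding and fast release, 2 were higher at an unadjusted p under 0.05 (Vamp1 and Nefm) and none lower, with a median of 0.17. Vamp1 had 40 and 55 UMIs in the controls and 84 and 83 in the KO animals (log2 fold change 0.75, SE 0.21, edgeR adjusted p = 0.212). Of 4 genes of GABA handling, 2 were higher, and Slc32a1, the vesicular GABA transporter, had 136 and 120 against 200 and 178 UMIs (0.49, SE 0.18, edgeR adjusted p = 0.301). Of 11 genes of energy metabolism 5 were higher and none lower, with a median of 0.22. Ndufa4, which is found with cytochrome oxidase, had 58 and 37 against 107 and 107 UMIs (1.09, SE 0.25, edgeR adjusted p = 0.161), and Cox5a 87 and 113 against 171 and 164. With the offset for gene length the value of Slc32a1 went from 0.49 to 0.15, that of Ndufa4 from 1.09 to 0.83 and that of Vamp1 remained at 0.75.

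Of 9 perineuronal net genes 1 was lower at an unadjusted p under 0.05 and none higher, with a median of -0.27. Hapln1 had 31 and 30 UMIs in the controls and 17 and 13 in the KO animals (log2 fold change -1.09, SE 0.33, edgeR adjusted p = 0.258), seen in 21 and 22 control and 14 and 10 KO members. Acan overlapped between genotypes, at 32 and 67 against 32 and 44 UMIs. Of 20 synapse organisers and receptors 3 were lower (Cntnap4, Nrxn3 and Gria1) and none higher, with a median of -0.19, and Gria1, an AMPA receptor subunit, had 1536 and 1878 against 1426 and 1380 UMIs (-0.34, SE 0.11, edgeR adjusted p = 0.272). Over all genes tested, the medians were -0.17 at spans of 100 to 300 kb and -0.21 over 300 kb, and the part of gene length in the synapse list was not tested. Of 14 lineage regulators 2 were higher and 1 lower (Npas3), with a median of 0.04. None of these lists held a gene that passed.

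Activity-induced genes were sparse. Of 18, 6 passed the filter on low counts and 5 of these were higher at an unadjusted p under 0.05, with a median of 0.86 over the 6, which had to reach the filter in at least 1 genotype. Dusp1, a phosphatase induced by calcium entry, had 11 and 6 UMIs in the controls and 24 and 26 in the KO animals, Nr4a1 2 and 6 against 10 and 18, and Vgf, a secreted neuropeptide precursor, 48 and 30 against 64 and 75. Fos, below the filter, had 1 and 2 UMIs in the controls and 10 and 8 in the KO animals, while Npas4 had 5 and 6 against 2 and 3. In excitatory nuclei all 18 were tested, 1 was called and 8 were higher at an unadjusted p under 0.05 (median 0.89), and in bulk cortex 2 of 18 were called (median 0.57).

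Among 17 partners of Trim28 in silencing, 1 was higher and 2 lower at an unadjusted p under 0.05, with a median of -0.04. Setdb1, the H3K9 methyltransferase, had 125 and 141 UMIs in the controls and 101 and 104 in the KO animals (log2 fold change -0.44, SE 0.16, edgeR adjusted p = 0.313), and Trim24 99 and 113 against 73 and 70. Mphosph8, of the HUSH complex, had 71 and 110 against 130 and 124. Of 18 imprinted genes 3 were higher and 1 lower, with a median of -0.01. Of 23 interferon and innate sensing genes 6 passed the filter and none had an unadjusted p under 0.05 (median 0.25), and Isg15 and Irf7 had 0 UMIs in the members of all 4 animals.

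Genes on a list of those near elements or loci taken as activated were at or close to 0 in the members. The main text of the study names none of the listed genes given here. In cortex of this cross it found no rise of genes near upregulated full-length MMERVK10C copies. She, an adaptor protein gene, had 0 and 0 UMIs in the control members and 0 and 1 in the KO members, and Draxin, a guidance molecule, 2 and 0 against 2 and 4, too few to test. In excitatory nuclei both rose (edgeR adjusted p = 0.000639 and 0.000466), She over a range of 0 to 15.2 CPM in the 4 animals and Draxin over 0.352 to 11.6. Of the 8 listed genes named in the nuclei data, BC048671, Abhd12b and Fbxw16 had 0 UMIs in the members. Of 56 clustered protocadherin genes only Pcdha1 was counted, at 2, 5, 7 and 9 UMIs in animals 64, 65, 60 and 73, and since the genes of that cluster overlap and share exons, which of them it stands for is uncertain.

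Whether the genotype effect itself differed was tested for Pvalb against excitatory nuclei with the animal as a block. It differed for 136 of 14921 genes (0.911%), of which 60 lay higher and 76 lower in Pvalb than in excitatory nuclei. Hunk (chromosome 16, 90386013 to 90499553, forward strand), a protein kinase, had the smallest p. It stood at 259 and 296 CPM in the control members and 267 and 344 in the KO members, against 83.6 and 68.5 in control and 13.9 and 11.4 in KO excitatory nuclei. Hunk thus fell by 2.63 on the log2 scale in excitatory nuclei, while in Pvalb nuclei its log2 fold change was 0.13, a difference of 2.72 (SE 0.18, edgeR adjusted p = 1.72e-09).

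Several more genes were lower in the KO excitatory nuclei and not in the members. Vegfa, the vascular growth factor, had 79 and 85 UMIs in the control and 128 and 121 in the KO members and fell by 1.25 in excitatory nuclei, a difference of 1.76 (SE 0.20, edgeR adjusted p = 4.78e-05). Svil, an actin-binding protein, had 14 and 17 against 17 and 23 UMIs, a difference of 2.54 (SE 0.44, edgeR adjusted p = 0.00433). With excitatory UMIs thinned to the totals of the members the difference was 1.19 for Vegfa (adjusted p = 0.156) and 1.88 for Svil (adjusted p = 0.245), so that neither passed there, whereas Hunk did.

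On the other side were long noncoding RNAs that rose in excitatory nuclei. 2410018L13Rik (chromosome 12, 22953997 to 23010284, reverse strand) had 6 and 8 UMIs in the control and 7 and 2 in the KO members, against 3.87 and 6.33 CPM in control and 44.8 and 57.6 in KO excitatory nuclei. Its control levels were alike in the 2 classes, at a mean of 5.13 and 5.10 CPM, and the difference in genotype effect was -3.97 (SE 0.68, edgeR adjusted p = 0.00385). Gm26573 (chromosome 4, 146153456 to 147024959, reverse strand) had 22 and 24 against 29 and 23 UMIs in the members, and rose in excitatory nuclei from 22.9 and 15.5 to 86.5 and 74.2 CPM (difference -1.95, SE 0.31, edgeR adjusted p = 0.002). Its neighbour C230088H06Rik, whose span overlaps it on the same strand so that their reads may be split, had 19 and 11 against 13 and 9. In the members all 3 noncoding RNAs overlapped between the genotypes.

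Pvrl1, an adhesion protein, had 22 and 28 UMIs in the control and 9 and 15 in the KO members, against a rise in excitatory nuclei from 15.2 and 27.9 to 40.6 and 51.4 CPM (difference -2.18, SE 0.37, edgeR adjusted p = 0.00361). RP23-59P20.3, a noncoding RNA, had 2 and 7 against 7 and 2 UMIs in the members and 1 and 3 against 134 and 116 in the far more numerous excitatory nuclei (difference -5.40, edgeR adjusted p = 0.0072), and without control 65 the adjusted p was 0.301. Of the 16 genes with the largest differences, 6 passed in each of the 4 fits that left out 1 animal (Hunk, Svil, Vegfa, 2410018L13Rik, Pvrl1 and Gm26573), and Lama4 and St8sia2 passed in none.

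**Figure D5:**
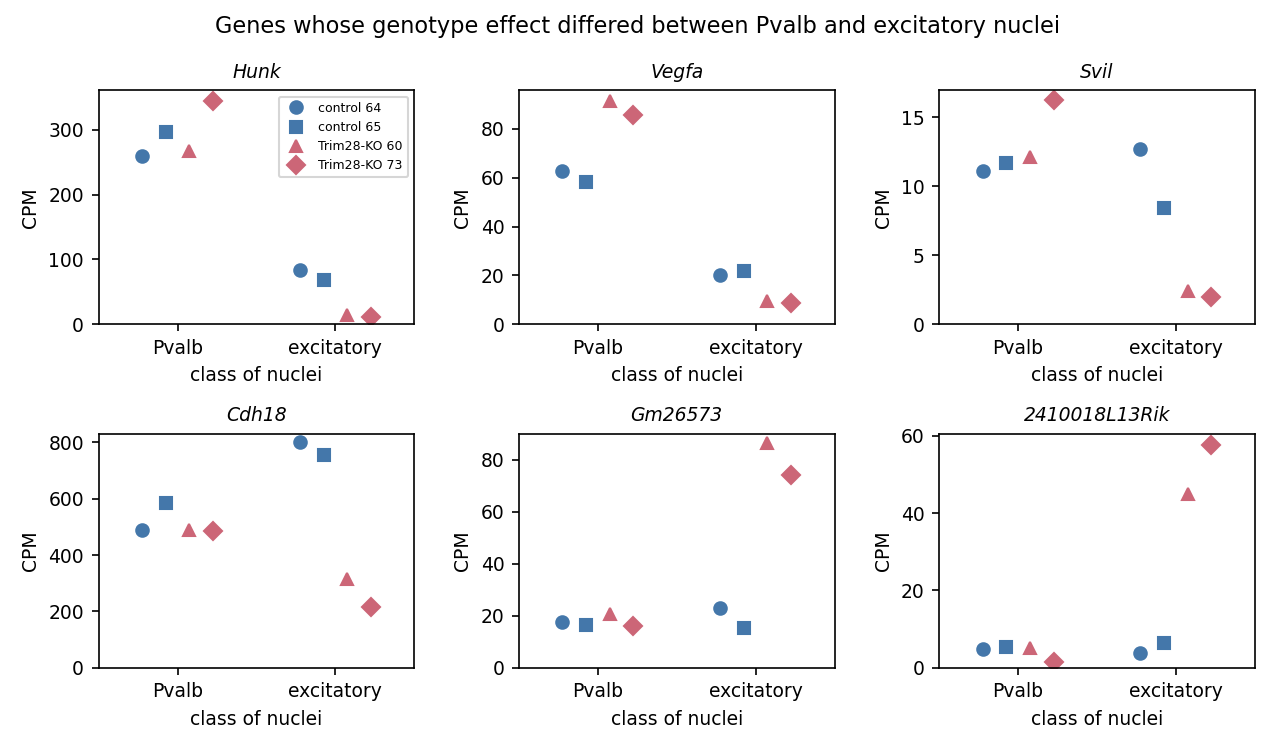
CPM of 6 genes whose genotype effect differed between Pvalb and excitatory nuclei, 1 point per animal and class (blue, controls 64 and 65; red, KO animals 60 and 73). Hunk, Vegfa, Svil and Cdh18 are lower in the KO excitatory nuclei and Gm26573 and 2410018L13Rik higher, while in Pvalb nuclei the genotypes overlap for Hunk, Gm26573 and 2410018L13Rik.

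The genes that the study lists for its excitatory and inhibitory clusters were chosen on these samples, so their direction there is not independent evidence. Of 11, none passed in Pvalb nuclei. Cdh18, a cadherin, had 616 and 850 UMIs in the control and 682 and 685 in the KO members (log2 fold change -0.16, SE 0.13) and fell by 1.59 in excitatory nuclei, a difference of 1.44 (SE 0.15, edgeR adjusted p = 1.33e-05). Tmem132d differed by 0.80 (edgeR adjusted p = 0.00114), Hecw2, a ubiquitin ligase, by 0.70 (0.00433), and Pak7, a neuronal kinase, by 0.69 (0.0142). For all 4 the fall in excitatory nuclei was larger than the change in Pvalb nuclei. Gm26835 had 316 and 246 against 345 and 414 UMIs, with a log2 fold change of 0.35 against 0.95 in excitatory nuclei (difference -0.61, edgeR adjusted p = 0.0322).

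Others did not differ between the classes at this depth. Sgcz, a sarcoglycan, had 857 and 1471 UMIs in the control and 673 and 893 in the KO members (log2 fold change -0.61, SE 0.18, edgeR adjusted p = 0.227) and fell by 0.70 in excitatory nuclei (difference edgeR adjusted p = 0.961). Meg3, an imprinted noncoding RNA, had 13458 and 15043 against 16137 and 17736 UMIs (0.18, SE 0.10), and Snhg11 12712 and 10602 against 14367 and 16200 (0.31, SE 0.14, edgeR adjusted p = 0.395). Hs3st4, a heparan sulfate sulfotransferase, had 15 and 27 against 8 and 57 UMIs, of which 16 came from 1 nucleus of KO 73, and its value turned from 0.57 to -1.43 without that animal.

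Against Sst nuclei, the closest class by origin, the genotype effect differed for 7 of 10183 genes (0.0687%). Slit3 stood at 209 and 205 CPM in the control and 126 and 113 in the KO members, but rose in Sst nuclei from 24.7 and 38.3 to 110 and 82.2, a difference of -2.26 (SE 0.30, edgeR adjusted p = 0.000256), and it passed without each animal in turn. Ntng1, netrin G1, had 211 and 144 against 224 and 194 UMIs in the members and 27 and 34 against 9 and 8 in Sst nuclei (difference 2.22, SE 0.38, edgeR adjusted p = 0.0056), and also passed without each animal. Erbb4 was level in the members at 10326 and 8571 against 8665 and 7925 CPM, and in Sst nuclei went from 661 and 2108 to 485 and 192. Its difference of 1.82 (edgeR adjusted p = 0.0416) was 0.76 without control 65 (adjusted p = 0.339), and with RLE factors in place of TMM the adjusted p was 0.0728. Rgs6 had 35 and 26 against 57 and 122 UMIs in the members, 46 of them in 1 nucleus of KO 73 (difference 1.88, and without KO 73 1.44 with an adjusted p of 0.0514). The count of 7 was 54 without control 64, 25 without control 65 and 29 without KO 60.

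Against Adarb2 Vip nuclei it differed for 3 of 10910 genes (0.0275%). Sox6, the lineage regulator, was level in the members at 896 and 877 against 825 and 776 CPM, and in Adarb2 Vip nuclei had 58 and 34 against 17 and 15 UMIs (difference 1.71, SE 0.28, edgeR adjusted p = 0.015; without KO 73 adjusted p = 0.147). Kcnip4, a potassium channel interacting protein, had 6831 and 7290 against 5542 and 4474 UMIs in the members (log2 fold change -0.57, edgeR adjusted p = 0.134) and 0.18 in Adarb2 Vip nuclei (difference -0.76, SE 0.12, edgeR adjusted p = 0.0123; adjusted p = 0.0879 without KO 73 and 0.0588 with RLE factors). The third, Gm37267, rested on 36 UMIs, all in 1 Pvalb nucleus of KO 73. The count of 3 was 50 without control 64, 32 without control 65 and 24 without KO 60.

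Transcripts of other cell types in the members are given for the whole marker lists, summed in CPM for animals 64, 65, 60 and 73. The 6 excitatory markers ranged from 48.8 to 92.1 in the controls and from 76.5 to 122 in the KO animals, and the 5 Adarb2 Vip markers from 42.1 to 49.5 and from 55.1 to 65.7. The 4 astrocyte markers ranged from 13.5 to 89.3 in the controls and 53.0 to 74.3 in the KO animals, the 5 microglia markers from 49.5 to 78.6 and 57.9 to 72.9, the 4 oligodendrocyte markers from 8.93 to 14.3 and 0.706 to 5.72, the 2 oligodendrocyte progenitor markers from 1.59 to 3.43 and 2.86 to 4.94, and the 3 vascular markers from 2.75 to 3.18 and 0.706 to 3.57. Cldn5, which defines endothelium, was at 0 in all 4. The 3 Sst markers, which the rule keeps low, were the sums given with Synpr. The rule also keeps low Adarb2 and Vip, and Slc17a7 and Neurod6 of the excitatory list. The Sst, Adarb2 Vip and oligodendrocyte sums did not overlap between genotypes, but neither did 44% of the 10201 genes tested, so no result about these lists is drawn from it. The Sst and oligodendrocyte sums lay lower and the Adarb2 Vip sum higher in the KO animals. The part of such transcripts in the values above was not tested.

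Bulk cortex RNA gave a readout that the rule did not use. Of the 61 Pvalb cell genes on the lists, 60 were tested and 0 were called by edgeR, against 223 of 16271 genes (1.37%) in all. At an unadjusted p under 0.05 there were 9, all lower in the KO animals (DESeq2 called 0 and put 10 under that threshold), whereas of all genes tested 9.15% lay under that threshold and 4.57% were lower. The 9 lower genes became 4, 5 and 7 without controls 64, 65 and 77, and 12 without KO 73. Without KO 76 there were 7 lower and 1 higher, and in the 4 animals that also gave nuclei 5 lower and 1 higher. Pvalb itself stood at 116, 109 and 95.4 CPM in controls 64, 65 and 77 and at 86.0, 105 and 79.8 in KO animals 60, 73 and 76, with overlap (log2 fold change -0.21, SE 0.12, edgeR adjusted p = 0.690). In bulk RNA, fewer cells of a type and less RNA per cell cannot be told apart.

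Among the 9 bulk genes were Eya4, the channel genes Kcnab1 and Scn1a, the release genes Syt2, Cplx1 and Vamp1, the net gene Hapln4 and the regulator Satb1. Syt2 stood at 109, 87.7 and 84.6 CPM in the controls and 73.4, 76.3 and 49.7 in the KO animals (log2 fold change -0.47, SE 0.15, edgeR adjusted p = 0.232), with no overlap. Vamp1 stood at 222, 200 and 189 against 156, 175 and 129 (-0.38, SE 0.11, edgeR adjusted p = 0.180), and Eya4 at 14.5, 12.1 and 15.8 against 11.3, 9.57 and 7.73 (-0.54, SE 0.16, edgeR adjusted p = 0.172). KO 76 was the lowest animal for Syt2, Vamp1 and Eya4, and its TMM factor was 0.773 against 1.03 to 1.07 in the other animals. For Vamp1 the bulk value lay below 0 and the value in the members above it, and it passed in neither readout. Many cortical neurons besides these interneurons use Vamp1 and Cplx1. KO 60 also mattered for the counts, since without it 1 of the 60 genes was called and 13 were lower and 3 higher at an unadjusted p under 0.05.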

How the data were processed

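For the nuclei, the authors deposited raw UMI counts made by Cell Ranger 3.0 on mm10 with introns counted, and for bulk cortex raw read counts per gene (STAR 2.6.0, featureCounts of Subread 1.6.3, GRCm38). CPM are counts scaled to the total, over the summed UMIs of a class in 1 animal, or over the TMM library size in bulk (totals 16748967 to 25345083). Members and gene lists were chosen with earlier results of these data known. No barcode was removed, and no doublet caller was run. UMIs were summed per animal and fitted in R 4.3.3 with edgeR 4.0.16 (filterByExpr, TMM, quasi-likelihood test, Benjamini-Hochberg over all genes tested). The SE is the log2 fold change over the square root of F. Rule genes stayed in the fits and out of the counts. Differences between classes were tested as an interaction with the animal as a block. DESeq2 1.42.0 was an alternative. The text names Trim28, rule genes, list members, the 6 smallest p in each direction where too few passed, the study's listed genes and up to 8 interactions per direction; some of these genes are not reported here. Gene spans and positions are from GENCODE vM21 (10189 of 10211 genes matched). The scripts were tested on simulated data. Each library is 1 animal, so p-values measure the spread between animals.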

Additional observations from a re-analysis of the deposited data

Results flagged for a closer look

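The results here had a genotype effect that differed between Pvalb nuclei and another class of the same animals, by a test of the difference itself (edgeR, adjusted over all genes). Such genes numbered 136 against excitatory, 7 against Sst and 3 against Adarb2 Vip nuclei.

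Against excitatory nuclei the log2 fold change in Pvalb nuclei was higher by 3.38 for Lama4, 2.83 for Adamts18, 2.72 for Hunk, 2.54 for Svil, 2.13 for Moxd1, 1.76 for Vegfa, 1.76 for Wipf1 and 1.58 for Ccdc15. Lama4 and Adamts18 had no more than 7 UMIs in the members of any animal. The difference was -5.40 for RP23-59P20.3, -3.97 for 2410018L13Rik, -2.41 for Camk1g, -2.19 for Zfp951, -2.18 for Pvrl1, -2.15 for C230088H06Rik, -1.96 for St8sia2 and -1.95 for Gm26573.

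Against Sst nuclei the difference was 2.22 for Ntng1, 1.88 for Rgs6, 1.82 for Erbb4, 1.36 for Slc4a4, 1.24 for Brinp3, -2.26 for Slit3 and -1.72 for Synpr. Slc4a4, a bicarbonate transporter, had 486 and 687 UMIs in the control and 502 and 496 in the KO members. Its difference (edgeR adjusted p = 0.0416) did not pass with RLE factors (0.0728), without control 65 (0.223) or without KO 73 (0.499). Brinp3 had 182 and 316 against 316 and 279 UMIs, and its adjusted p without KO 73 was 0.0514. That of Synpr was 0.147 without KO 60. Against Adarb2 Vip nuclei the difference was 1.71 for Sox6, -0.76 for Kcnip4 and 13.0 for Gm37267. The value of Gm37267 is set by groups at 0 and is no measure of size.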

How the results depend on the processing

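With 2 animals per genotype, the exact tests cannot pass, and counts of calls moved with single animals. No paired analysis was possible because KO and control animals carry different numbers. Leaving out 1 animal at a time gave 19 to 964 calls in Pvalb nuclei (4 to 17 among the named genes), 600 to 4385 in excitatory nuclei, 8 to 54 differences against Sst, 3 to 50 against Adarb2 Vip nuclei and 0 to 1 bulk Pvalb cell genes. It moved Trim28 in Pvalb nuclei between -1.17 and 0.34, the share difference between -0.640 and 0.0404 points, and Hs3st4 between -1.43 and 1.39. The 136 differences against excitatory nuclei ranged from 97 to 171. In the smaller set of nuclei with no excitatory or glial marker UMI, 13 genes were called. Of these, 4 were genes of the naming rule (among them Nap1l5, March1 and Dcc). The values of Homer1 and Sgcz turned to -0.20 and 0.14 in that set. With excitatory UMIs thinned to the Pvalb totals, 581 genes were called in excitatory nuclei and 40 differed from Pvalb nuclei. With no filter on low counts there were 144 calls in excitatory nuclei, 229, 25 and 29 differences against excitatory, Sst and Adarb2 Vip nuclei, and 3 bulk calls. Offsets for gene length, chosen after seeing the data, turned Hecw2, Pak7 and Cdh18 to 0.0616, 0.0110 and 0.10, and sums of at least 5 turned Hs3st4 to -0.21. The cause was not tested. DESeq2 and RLE factors kept the count of 0 in Pvalb nuclei, but RLE factors ended the differences of Erbb4, Slc4a4 and Kcnip4 and left 5 against Sst and 2 against Adarb2 Vip nuclei. The same nuclei remained within 3 median absolute deviations.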
